A study of Mus musculus with 4 samples.

Results

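The genes described here encode the T cell receptor complex and the molecules that work directly beside it. They are 10 of the 27670 gene labels on the array, taken by name from the array's own gene column, and each was read from its brightest probe. The CD3 chains are Cd3d, Cd3e and Cd3g, and the co-receptors are Cd4, Cd8a and Cd8b1. Lck, Lat, Cd28 and Tcf7 complete the set. The animals were male C57BL/6J mice aged 13 weeks, and their livers and spleens were taken after 4 weeks of feeding. The control group received a purified diet with 0.03% nucleic acids (low NP), and the treated group received this diet with S-nuclegen, a nucleoprotein (NP) product, at 1.2%, which brought nucleic acids to 0.5%. Total RNA was pooled within each diet and tissue, and these 4 kinds of pool are called NP liver, low-NP liver, NP spleen and low-NP spleen. The labels do not say how many mice a pool holds.

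The T cell receptor recognises peptide held by an MHC molecule but has almost no intracellular part of its own. It signals through the CD3 chains, whose cytoplasmic motifs are phosphorylated by the kinase Lck. CD4 and CD8 bind MHC class II and class I and bring Lck to the receptor, LAT is the membrane scaffold on which downstream enzymes gather, and CD28 gives the costimulatory signal. Tcf7 encodes TCF-1, a transcription factor of developing, naive and memory T cells. Spleen is a lymphoid organ rich in T cells, whereas most liver RNA comes from hepatocytes and resident T cells are a minority there.

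Each tissue was hybridised to 2 arrays with the dyes exchanged, array 1 with the NP pool in Cy5 and array 2 with it in Cy3. The labels do not settle whether each array had pools of its own, so both were counted as 1 replicate per diet and tissue. No test of the diet was possible and no p-value is given. A ratio is given as log2 of NP over low NP, the mean of both arrays, and ± is the distance of each array from that mean. The sign runs against the deposited value table, whose ratios have the low-NP pool on top. A gene counted as measured if, on each of the 2 arrays, its probe stood well above background in either channel, and called lower or higher where both arrays passed 1.5-fold in that direction. Between 58.6% and 94.7% of probes were well above background, and spleen array 1 stood apart with the highest shares and with a median negative-control signal of 156 in Cy3 and 307 in Cy5, against 62.7 to 74.0 elsewhere.

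Low-NP spleen gave more hepatocyte marker signal than NP spleen, and low-NP liver gave more signal than NP liver for many genes bright in spleen. All 17 hepatocyte marker genes were called lower in NP spleen than in low-NP spleen, with a median of -6.08 ± 0.60. For these genes the linear signal of low-NP spleen lay a median of 42.8% of the way from NP spleen to NP liver. In liver, 609 of the 620 genes called lower in the NP pool were at least 2-fold brighter in NP spleen than in NP liver. Of all 16967 genes measured in liver, 3128 were that much brighter, and both comparisons contain the NP liver level. All 15 exocrine pancreas markers were called lower in the NP pool of both tissues. Every array carries low-NP RNA of its tissue, so no diet ratio could be given without it. The difference between NP spleen and NP liver compares NP channels only. Those levels were still normalized together with the low-NP channel of the same array.

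The probes for the CD3 chains lie close together on mouse chromosome 9 (build mm7, as in the array files). Those of Cd3d and Cd3g are shown because their signals differed between the liver pools. Both cross an exon junction: the 60 bases of the Cd3d probe are spread over 232 bases at chr9:44920433-44920664 (plus strand), and those of the Cd3g probe over 585 bases at chr9:44907978-44908562 (minus strand).
Cd3d probe: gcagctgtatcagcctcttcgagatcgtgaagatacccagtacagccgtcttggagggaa
Cd3g probe: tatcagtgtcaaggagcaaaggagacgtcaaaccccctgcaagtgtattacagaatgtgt

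In the RefSeq promoter table (build GRCm38.p6), 7 of the 10 genes were found, with 9 start sites between them. The starts of Cd3g and Cd3d lie 1355 bases apart on opposite strands. The 250 bases before each start of the CD3 genes are shown because the probes of Cd3d and Cd3g were called lower in liver. That of Cd3e, their neighbour, was not called. It was also no brighter in NP spleen than in NP liver, so whether it reads Cd3e RNA is uncertain. Capitals mark matches, on either strand, to short motifs of factor families known from T cells, and no matches overlapped. The windows are chr9:44981536-44981785 (plus strand) for Cd3d, chr9:44980432-44980681 (minus strand) for Cd3g and chr9:45009612-45009861 (minus strand) for Cd3e.
Cd3d promoter: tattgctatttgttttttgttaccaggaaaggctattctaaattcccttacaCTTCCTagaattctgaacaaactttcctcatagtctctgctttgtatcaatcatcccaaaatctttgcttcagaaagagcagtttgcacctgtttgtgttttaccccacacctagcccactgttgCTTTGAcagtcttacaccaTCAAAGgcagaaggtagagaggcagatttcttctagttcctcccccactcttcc
Cd3g promoter: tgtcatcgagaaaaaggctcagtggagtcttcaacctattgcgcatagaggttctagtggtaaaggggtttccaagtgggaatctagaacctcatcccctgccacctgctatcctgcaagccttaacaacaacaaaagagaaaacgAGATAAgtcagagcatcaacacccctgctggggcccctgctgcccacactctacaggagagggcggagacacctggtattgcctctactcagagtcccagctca
Cd3e promoter: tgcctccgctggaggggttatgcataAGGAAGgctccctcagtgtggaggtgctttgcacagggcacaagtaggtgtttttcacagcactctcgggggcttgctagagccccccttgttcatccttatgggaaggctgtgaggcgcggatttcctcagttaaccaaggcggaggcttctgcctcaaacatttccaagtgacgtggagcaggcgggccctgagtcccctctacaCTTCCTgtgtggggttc

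ETS factors were searched as AGGAAG on both strands. These letters stood in 5 of the 9 windows of these genes, against 29.5% of all 32851 promoter windows of that length. Cd3d held them 198 bases before its start, and Cd3e held them at 224 and 17 bases. The upstream window of Lck held 3 such matches and its downstream window 1, and that of Lat held 1. TCF and LEF factors, the family of Tcf7, were searched as CTTTGA on both strands. Both matches, 73 and 54 bases before the start, were in Cd3d, and 13.8% of all windows hold these letters. GATA factors were searched as AGATAA on both strands, which Cd3g held at 104 bases and 9.99% of all windows hold. The RUNX motif TGTGGT, on both strands, stood in the upstream Lck window and in 14.0% of all windows. The palindromic E-box motif CAGCTG stood in a Tcf7 window and in 13.0% of all windows. A match is a description of the letters only.

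In liver, 7 of the 10 genes were called lower in the NP pool and none higher, where 3.65% of all 16967 measured genes were called lower and 0.0707% higher. All 10 were measured. Their median ratio was -1.57 ± 0.68, against 0.00 over all measured genes. The called genes span the receptor's parts: Cd3d and Cd3g of the CD3 chains, both CD8 chains, the kinase Lck, the scaffold Lat and the transcription factor Tcf7. Cd3e, Cd4 and Cd28 were not called. Fewer T cells and less of these RNAs per T cell cannot be told apart in pooled tissue RNA. Whether low-NP liver held RNA from spleen was not tested, and the ratios cannot be told apart from that either.

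**Figure D1:**
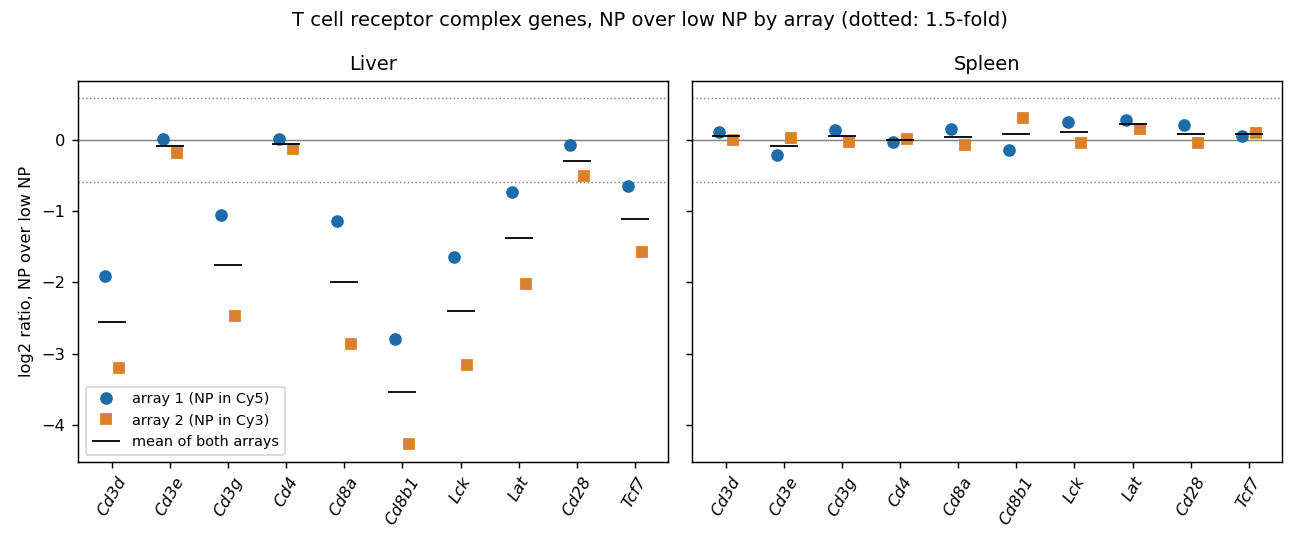
Log2 ratio of NP over low NP for each of the 10 genes in liver (left) and spleen (right), with circles for array 1, squares for array 2, a bar for their mean and dotted lines at 1.5-fold. In liver both arrays of 7 genes lie past the lower dotted line and array 2 lies lowest in every gene, while in spleen all values lie between -0.21 and 0.31.

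Among the CD3 chains, Cd3d encodes CD3 delta, which pairs with CD3 epsilon in the complex. Its normalized log2 signal was 9.36 on array 1 and 8.59 on array 2 in NP liver, and 11.27 and 11.80 in low-NP liver. The arrays of the diets did not overlap, and the low-NP pool was 5.90-fold higher. The ratio was -1.91 on array 1 and -3.21 on array 2, with a mean of -2.56 ± 0.65. Cd3g encodes CD3 gamma, which also pairs with CD3 epsilon. It was at 8.90 and 8.07 in NP liver and at 9.96 and 10.54 in low-NP liver, again without overlap, which gave -1.76 ± 0.71.

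Cd3e encodes the CD3 epsilon chain that every receptor complex carries, and its brightest probe did not follow those of its neighbours. Its probe at chr9:44933516-44933575 (minus strand) gave 8.82 and 8.80 in NP liver, and 8.81 and 8.98 in low-NP liver. The ratio was -0.08 ± 0.09, so the diets could not be separated beyond the difference between arrays. The probe was no brighter in spleen, at 8.30 and 8.96 in the NP pool, so whether it reads Cd3e RNA is uncertain. The other Cd3e probe, at chr9:44938246-44938305, was not measured in liver, so no ratio between the tissues is given for it.

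Among the co-receptors, Cd8b1, which encodes the CD8 beta chain of conventional cytotoxic T cells, had the largest ratio of the 10 genes. It was at 9.16 and 8.21 in NP liver and at 11.96 and 12.49 in low-NP liver. The ratio was -2.80 on array 1 and -4.28 on array 2, a mean of -3.54 ± 0.74, and low-NP liver was 11.6-fold higher. Cd8a, the CD8 alpha chain, which also forms homodimers on some lymphocytes and dendritic cells, was at 8.92 and 7.88 in NP liver and at 10.06 and 10.75 in low-NP liver. Its ratio was -2.00 ± 0.87, and the diets did not overlap. The chosen probes of the CD8 genes lie at chr6:71355005-71355063 and chr6:71395267-71395326, both on the plus strand.

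Cd4 encodes the co-receptor of helper T cells and is also expressed by some dendritic cells. Its probe at chr6:124894079-124894138 (minus strand) was spotted 10 times on each array. It was at 7.97 and 7.91 in NP liver and at 7.96 and 8.04 in low-NP liver, and these values overlapped. The ratio was -0.06 ± 0.07. The SD over its unflagged spots was 0.005 on liver array 1 and 0.10 on liver array 2. The Cd4 probe was 1.29-fold brighter in NP spleen than in NP liver, a small excess beside the 69.5-fold of Cd8b1. A further Cd4 probe gave -0.16 ± 0.12 in liver. Both probes were dim in NP spleen too, at means of 8.30 and 8.21, so how well they read Cd4 RNA is uncertain. Their small ratios therefore do not show that Cd4 RNA was alike between the diets, whatever the SD over spots.

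Lck encodes the kinase that phosphorylates the CD3 chains. Its probe at chr4:128993249-128993308 (minus strand) gave 9.14 and 8.23 in NP liver, and 10.78 and 11.39 in low-NP liver. The ratio was -1.64 on array 1 and -3.16 on array 2, a mean of -2.40 ± 0.76, without overlap between the diets. Lat, at chr7:122460763-122460822 (minus strand), was at 8.68 and 8.00 in NP liver and at 9.41 and 10.03 in low-NP liver. Its ratio of -1.38 ± 0.65 was smaller, and array 1 (-0.74) lay nearer to the 1.5-fold threshold of 0.585 than array 2 (-2.03).

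Tcf7 gave the smallest ratio among the called genes. Its probe at chr11:52209369-52209428 (minus strand) was at 9.11 and 8.70 in NP liver and at 9.76 and 10.27 in low-NP liver. The ratio was -0.65 on array 1 and -1.57 on array 2, so that array 1 passed the threshold narrowly. Cd28, the costimulatory receptor, was not well above background in NP liver on either array, at 7.75 and 7.70. In low-NP liver it was at 7.83 and 8.20, and its ratio was -0.29 ± 0.21. On the mean of both arrays the low-NP pool was 1.22-fold higher, but the ratio was only -0.08 on array 1 against -0.50 on array 2. The NP liver signal may lie below the value read, so the mean fold is a lower bound in that respect only. Its probe at chr1:61023768-61023827 was also spotted 10 times, with an SD over spots of 0.01 and 0.05 on the liver arrays.

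The arrays agreed on direction for the called genes but not on size. In all 10 genes array 2 gave the lower ratio, and the median was -0.89 on array 1 and -2.25 on array 2. The same held for 575 of the 620 genes called lower in liver (92.7%). With the scanner software's processed signals the median of the 10 genes was -3.19 and Cd28 was called too, while with median centring in place of loess 5 genes remained called, without Lat and Tcf7.

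In spleen none of the 10 genes was called in either direction, where 6.36% of all 18409 measured genes were called lower and 0.0435% higher. The median ratio was 0.07 ± 0.06, against -0.02 over all measured genes, and it turned to -0.16 under median centring, where all measured genes had a median of -0.15. Cd3d was at 13.82 and 13.83 in NP spleen and at 13.71 and 13.83 in low-NP spleen, and the diets overlapped. Its ratio was 0.06 ± 0.05. Cd8b1, with the largest liver ratio, was -0.15 on array 1 and 0.31 on array 2, a mean of 0.08 ± 0.23, so its arrays took opposite signs.

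The other genes were also under 1.5-fold in spleen. Lck was 0.11 ± 0.15, Cd8a 0.04 ± 0.11 and Cd3g 0.06 ± 0.09, each with arrays of opposite sign. Lat had the highest spleen ratio, at 0.28 and 0.15 on the arrays (0.22 ± 0.07), and Tcf7 was 0.08 ± 0.02. Cd28 was 0.08 ± 0.13, Cd4 was -0.01 ± 0.02 and Cd3e was -0.09 ± 0.12. No gene passed 1.5-fold on either spleen array alone, including spleen array 2 without the array of high background.

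The same 7 genes were separated between the tissues. NP spleen exceeded NP liver 69.5-fold for Cd8b1, 28.8-fold for Cd3d, 23.2-fold for Lck and 18.6-fold for Cd8a. The excess was 13.7-fold for Lat, 13.6-fold for Cd3g and 6.09-fold for Tcf7. Of the genes not called in liver, Cd4 had an excess of 1.29-fold and Cd3e of 0.88-fold. That of Cd28 was at least 1.98-fold, a lower bound because its NP liver signal was not well above background. Between the low-NP pools the excess of spleen was smaller, at 5.64-fold for Cd8b1, 4.70-fold for Cd3d and 2.67-fold for Tcf7.

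In each of the 7 genes the pools took the same order. NP liver was lowest, low-NP liver followed, and the spleen pools were highest, with no overlap between arrays at either step. The spleen pools overlapped in all 7, so they could not be ordered. Cd28 took the same order from 7.70 to 8.81 over all arrays, with NP liver not well above background. For Cd4 the liver pools overlapped each other and the spleen pools lay slightly above, and for Cd3e all 4 pools overlapped.

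**Figure D2:**
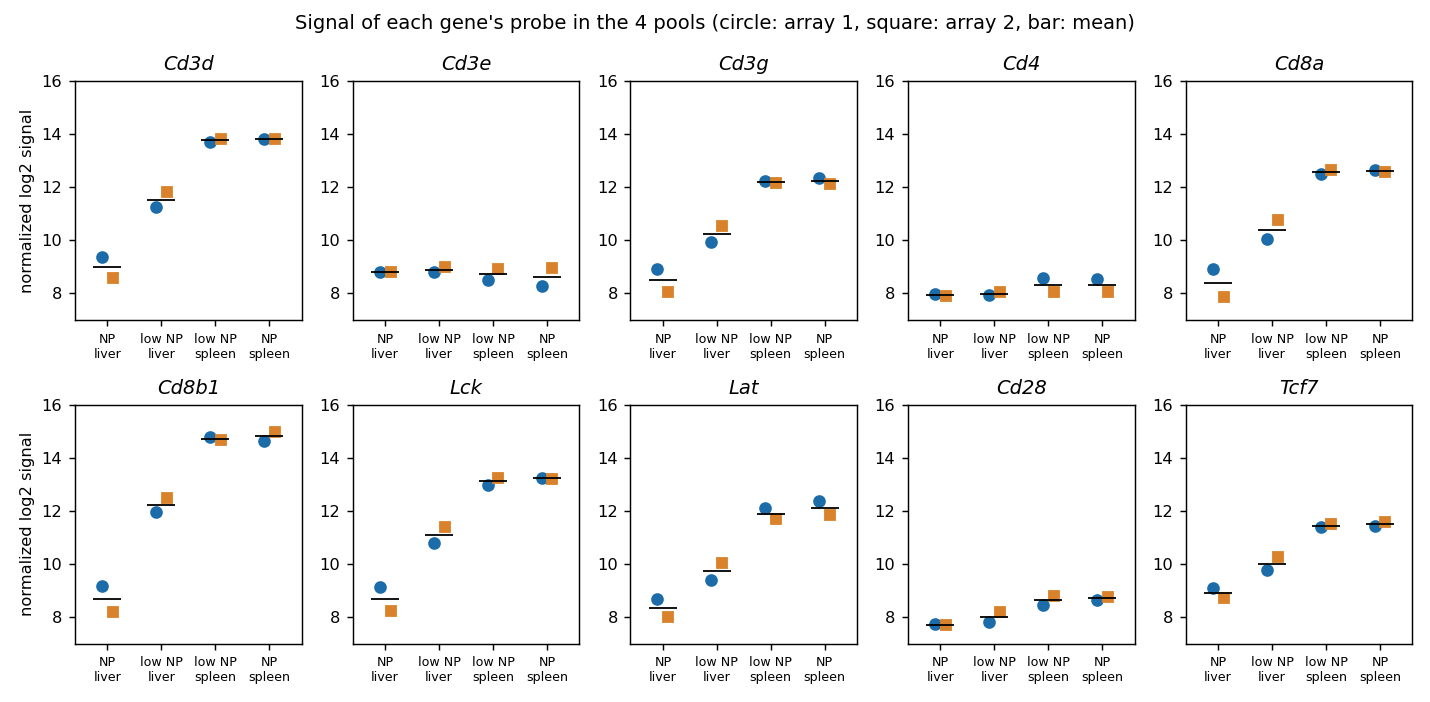
Normalized log2 signal of each gene's probe in the 4 pools, 1 panel per gene, with circles for array 1, squares for array 2 and a bar for their mean. In 7 panels low-NP liver lies between NP liver and the spleen pools, whereas Cd3e and Cd4 stay nearly level. Panels are separate probes and their heights are not comparable.

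The position of low-NP liver was expressed, on the linear signal scale, in percent of the way from NP liver to NP spleen for the 7 genes at least 2-fold brighter in NP spleen. It was 17.6% for Cd3d, 19.0% for Cd3g, 17.0% for Cd8a and 15.5% for Cd8b1. Lck lay at 19.2%, Lat at 12.6% and Tcf7 at 22.7%. The median was 17.6%, or 12.2% from liver array 1 and 24.5% from liver array 2. On mean levels the 7 genes lay within 12.6% to 22.7%, and their ratios ran from -1.11 to -3.54. On single arrays the positions ran from 6.73% for Lat on array 1 to 32.7% for Tcf7 on array 2.

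**Figure D3:**
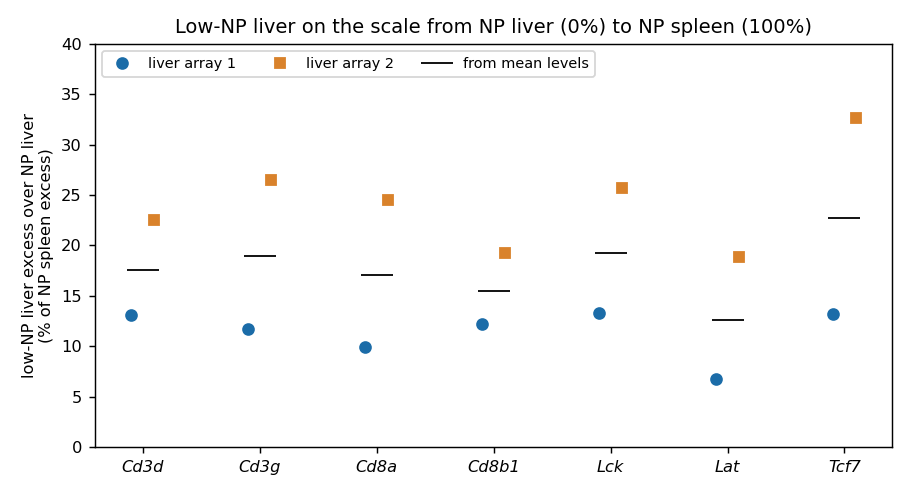
Position of low-NP liver on a linear signal scale, in percent of the way from NP liver to NP spleen, for the 7 genes at least 2-fold brighter in NP spleen, from liver array 1 (circles), liver array 2 (squares) and mean levels (bars). The bars lie between 12.6% and 22.7%, with array 2 above array 1 in each gene.

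Low-NP liver also lay between NP liver and NP spleen for most other genes brighter in spleen, mostly below 17.6% on mean levels. Over all 3128 measured genes at least 2-fold brighter in NP spleen than in NP liver, low-NP liver lay at a median of 13.9% (quartiles 10.4% and 17.9%). Of these genes, 19.5% were called lower in NP liver. Among the 761 genes with a spleen excess at least as large as that of Tcf7, 69.4% were called lower and the median position was 14.4% (quartiles 12.4% and 17.3%). On mean levels the median of 17.6% for the 7 genes lay just above that upper quartile. It was 12.2% from liver array 1 and 24.5% from liver array 2, a wider gap than that between the quartiles. Quartiles were not taken per array, so a higher position of the 7 genes is not established. All 7 of the genes described here belong to those 761 by construction, because Tcf7 had the smallest excess among them.

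Where a gene had several probes, those with a larger excess of NP spleen over NP liver gave the lower liver ratios. Both values contain the NP liver level. The 10 genes had 17 probes, of which 15 were measured in liver and 7 called lower, all of them the brightest of their gene. Cd8a had 2 further probes: a probe spotted 10 times gave -0.58 on array 1 and -2.46 on array 2 (-1.52 ± 0.94), missing the call narrowly on array 1, and the other gave -0.63 ± 0.42. They were 3.49 and 2.05 log2 units brighter in NP spleen than in NP liver, against 4.22 for the chosen Cd8a probe. The other Tcf7 probe gave -0.46 ± 0.20 with a tissue difference of 1.55 log2 units, against 2.61 for the chosen probe.

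A further probe carries the name Cd8b1 but was placed by the array files at chr5:114364254-114364313, away from the Cd8b1 probe on chromosome 6. It gave -0.03 ± 0.01 in liver and was 0.52 log2 units dimmer in NP spleen than in NP liver. With the median over all probes of a gene in place of the brightest, 5 of the 10 genes remained called, without Cd8a and Tcf7.

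The chains of the receptor itself are read by 16 probes named for the alpha, beta or gamma locus. Of these, 10 were measured in liver, and 2 alpha and 3 beta probes were called lower. The called beta probes, all named Tcrb-V13, gave -2.97 ± 0.38, -2.76 ± 0.40 and -2.50 ± 0.48. They lie side by side on chromosome 6, between positions 41477802 and 41479386 (build mm7), so they may not be readings of different segments. The remaining measured beta probes, of the same name but starting at positions 41066616 and 41072640, gave -0.29 ± 0.25 and -0.14 ± 0.09 and were not called. The called Tcra probes gave -1.56 ± 0.85 and -1.38 ± 0.73, and the remaining Tcra probe gave -0.56 ± 0.30. Neither of the 2 measured gamma probes was called, and in spleen none of the 13 measured probes was. These loci carry many similar segments, so the segment a probe reads is uncertain.

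**Figure D4:**
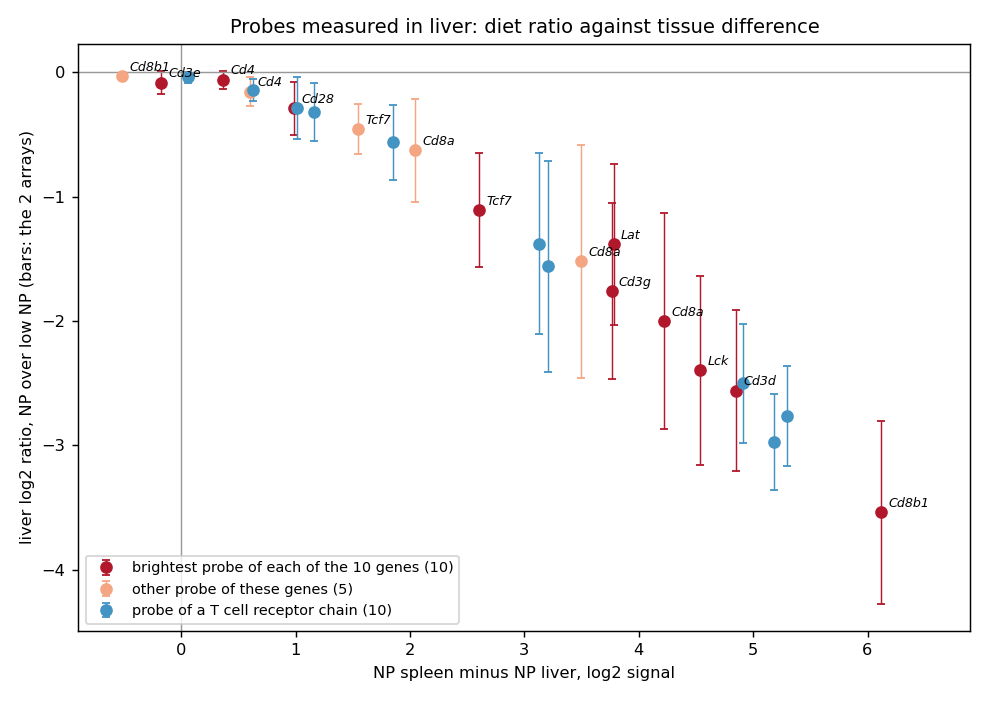
Liver log2 ratio of NP over low NP (bars reach the values of the 2 arrays) against the log2 difference between NP spleen and NP liver, for 15 probes of these genes and 10 of the receptor chains, all those measured in liver. Probes with a small tissue difference lie near a ratio of 0 and those with a large one lie lowest, and both axes contain the NP liver level.

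Among 34 other genes of T cell receptor signalling, 33 were measured in liver, 8 were called lower and none higher, with a median of -0.55 ± 0.34. Ptprc, which encodes the phosphatase CD45 that activates Lck, gave -2.65 ± 0.53. Further called genes were Ptpn22 (-1.81 ± 1.10), a phosphatase that restrains Lck, Was (-1.67 ± 0.39), Txk (-1.37 ± 0.74), Rasgrp1 (-1.31 ± 0.52), Vav1 (-1.17 ± 0.24) and Dgka (-0.99 ± 0.18). Ptprc, Was, Vav1 and Dgka are also expressed by other leukocytes. Near the other end was Nfatc2 (0.15 ± 0.13), a transcription factor activated by receptor signals.

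In spleen 34 of these genes were measured, and their median was 0.06 ± 0.01. The called signalling genes named above lay between 0.04 (Ptpn22) and 0.30 (Rasgrp1) there, and none of them was called. In liver, low-NP liver lay at a median of 17.5% between NP liver and NP spleen for the 23 genes at least 2-fold brighter in NP spleen.

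Other T cell genes were lower alongside in liver. Of 24 measured genes of the T cell surface and costimulation, 13 were called lower, with a median of -1.39 ± 0.51. Cd5, a receptor that dampens T cell receptor signals, gave -2.38 ± 0.91. At the other end were S1pr1 (-0.06 ± 0.15) and Il2ra (-0.03 ± 0.02). None of the 26 measured in spleen was called.

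Of 19 measured T cell transcription factors, 5 were called lower in liver, with a median of -0.43 ± 0.22. Lef1, the relative of Tcf7, gave -2.05 ± 0.87 and Satb1, a chromatin organiser of T cells, gave -1.81 ± 0.78. Id2, which encodes an inhibitor of E proteins, gave 0.20 ± 0.32. In spleen Lef1 was 0.14 ± 0.12, Satb1 was 0.03 ± 0.10 and Id2 was -0.26 ± 0.05, none of them called.

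Some markers of other leukocytes were called lower in NP liver, in shares that differed between cell types. For B cells, 16 of 20 measured markers were called lower, with a median of -2.13 ± 0.71, led by Ms4a1, which encodes CD20 (-4.66 ± 0.70), and Cd79b of the B cell receptor (-4.62 ± 0.43). The log2 of their summed signal ran from 13.33 to 13.97 in NP liver and from 17.03 to 17.28 in low-NP liver, and 3 of the 20 were not well above background in NP liver. The called share was 3 of 12 for NK and cytotoxic markers, 6 of 18 for macrophage and monocyte markers and 1 of 9 for dendritic cell markers. Median positions of low-NP liver between NP liver and NP spleen were 15.7% for B cell, 15.4% for NK, 13.4% for macrophage and 16.8% for dendritic cell markers.

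None of the 17 hepatocyte markers was called in liver (0.06 ± 0.58). Their arrays differed, with medians of 0.64 and -0.51, and their log2 summed signal overlapped, from 20.85 to 21.52 in NP liver and from 20.82 to 21.52 in low-NP liver. Exocrine pancreas markers had a liver median of -1.01 ± 0.01, with summed signals of 17.64 to 17.80 in NP liver and 18.78 to 18.85 in low-NP liver. Erythroid markers, also richer in spleen, gave other values: 1 of 9 was called lower in liver, and low-NP liver lay at a median of 1.05% between NP liver and NP spleen. The part of these other cell types and tissues in the ratios of the 10 genes was not tested.

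In spleen, where the 10 genes were not called, the hepatocyte markers had a log2 summed signal of 14.67 to 16.49 in the NP pool and 21.09 to 21.63 in the low-NP pool. Clec4f (-2.85 ± 1.51) and Vsig4 (-1.47 ± 0.88), markers of liver Kupffer cells, were the macrophage genes called lower there. No B cell, NK or dendritic cell marker was called in spleen. Of 12 erythroid markers, 3 were called higher there, with a list median of 0.58 ± 0.02.

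**Figure D5:**
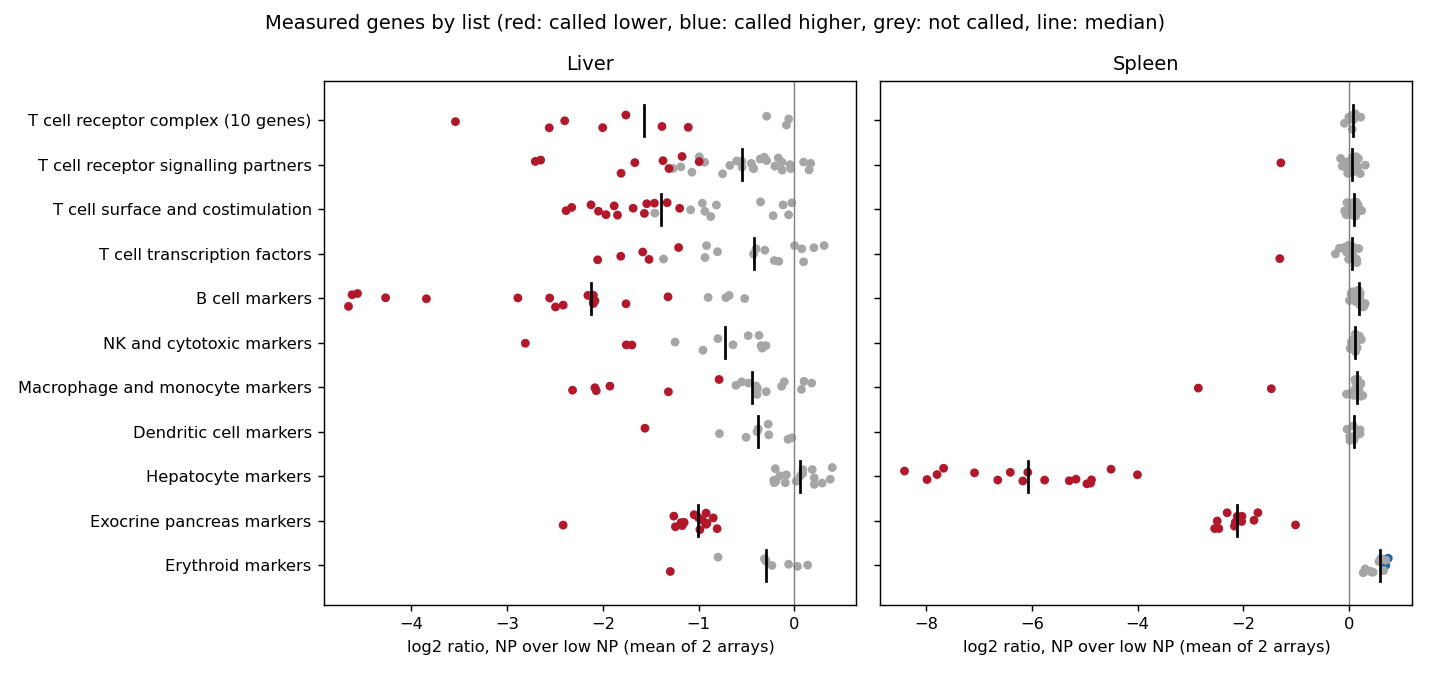
Log2 ratio of NP over low NP (mean of 2 arrays) for every measured gene of the 10 genes and of 10 gene lists, in liver (left) and spleen (right), on separate scales. Red points were called lower, blue points higher, grey points were not called, and the bar is the list median. In liver the T cell and B cell lists extend to the left and hepatocyte markers stay around 0, while in spleen the hepatocyte and pancreas markers lie lowest.

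The genes whose levels followed the 10 genes most closely were sought among 16474 others, by the root mean square distance between their log2 level, centred over the 8 channels of the 4 pools, and the median of the 10 genes. The nearest were C130026I21Rik (0.09), Rassf2 (0.12), Satb1 (0.12), Syk (0.12) and Mgst2 (0.13). Their liver ratios lay between -1.81 and -1.60 and their spleen ratios between 0.03 and 0.14. Syk encodes a kinase best known for B cell receptor signalling, so the nearest patterns were not limited to T cell genes.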

How the data were processed

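The 4 arrays (Agilent 2-colour, 41174 non-control probes) lie on 1 slide, so slide could not be a batch. Spot intensity in Cy3 and Cy5, foreground and local background, comes from the deposited scanner output of Agilent Feature Extraction (version 9.5.3.1, per the submitters' processing notes). That software's own log10 ratio of Cy5 over Cy3 stands beside it, per the file headers. A further log10 ratio is in the deposited value table, and how the authors made it is unknown here. Its columns correlated at -0.992, -0.990, -0.989 and -0.998 with the scanner log10 ratio turned to NP over low NP. It has the scanner ratio's scale, its column medians (0.03, -0.07, -0.01 and -0.04) show that it was not centred on 0, and its direction is low NP over NP.

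In limma 3.58.1 (R 4.3.3), mean signals with median local background were corrected with normexp (offset 50) and normalized by loess within arrays, with control and outlier spots given no weight. The resulting log2 ratios and levels were computed here from the deposited intensity values. Levels per pool used Aquantile between arrays. Replicate spots were averaged and the brightest probe of a gene was used. The 10 genes were taken by the array's gene name and other probes through a RefSeq table (GRCm38.p6): 22940 matched by accession, 6653 by symbol and 3109 by synonym, and 8455 kept the file's name. A list's ± is the distance of its 2 array medians from their mean.

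The 10 genes, the lists and the alternatives were chosen with earlier results of these data known. All 10 genes are named, with up to 2 genes at each end of every other list by liver ratio, the called signalling partners and the 5 nearest genes, except that a few genes this rule takes are not reported here. The call rule was tested on simulated data. Python 3.11.15, numpy 2.4.6, pandas 2.3.3 and matplotlib 3.10.9 were used.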

Additional observations from a re-analysis of the deposited data

Results flagged for a closer look

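In 3 genes both liver arrays had lower values in NP than in low NP while both spleen arrays had higher ones. The spleen log2 ratio exceeded the liver log2 ratio by 2.62 for Cd3d, 1.60 for Lat and 1.19 for Tcf7. The spleen ratios of these genes were all smaller than 1.5-fold, and that of Cd3d on spleen array 2 was 0.00. With median centring in place of loess the spleen ratios turned to -0.22 for Cd3d, -0.02 for Lat and -0.15 for Tcf7, so opposite directions in the tissues were not kept under that setting. The arrays of a tissue were counted as 1 replicate, and the difference was not tested.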

How the results depend on the processing

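The count of 10 genes called lower in liver ran from 5 to 8 over the alternatives and none was called in spleen under any of them. No called ratio changed sign. The liver median was -3.19 with processed signals and -3.19 from the deposited value table, and leaving out 1 array gave -2.25 to -0.89. The spleen median was 0.19 with processed signals, 0.19 from the deposited value table and -0.16 with median centring, and 0.01 to 0.13 with 1 array left out. The share of all measured genes called lower in liver was 7.83% with no background correction, 10.3% with processed signals, 1.91% with median centring, 1.74% at 2-fold and 2.24% with no filter on dim probes, and 4.13% to 11.3% with 1 array left out. In spleen it was 4.19% at 2-fold and 4.23% with no filter, and 6.75% to 9.08% with 1 array left out. The median position of low-NP liver was 12.2% to 24.5% with 1 array left out. Fewer calls at 2-fold and more genes tested without the filter follow from how those alternatives are built, and for the others the cause was not tested. No paired analysis was possible because the numbered arrays are dye swaps counted as 1 replicate and the results come from no test.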
